A study of Homo sapiens with 2 samples.

Results

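The miR-191 and miR-425 cluster is a pair of microRNA (miRNA) hairpins in 1 intron of the gene DALRD3, and its 4 mature products are miR-191-5p, miR-191-3p, miR-425-5p and miR-425-3p. They were taken by name from the authors' table, where all 4 were found among 1213 entries. The names were selected on the scaled reads of both libraries, which were known when the cluster was picked, so its levels are given as a description, with no test. The study sequenced small RNAs of UM-SCC6, a line of human oral squamous carcinoma cells, in 2 cultures. One was the parental line. The other, UM-SCC6-M, was grown from cells that had crossed a matrix channel of a microfluidic chip, taken through 3 rounds of that selection, and is labelled as highly invasive with some mesenchymal traits. Each culture gave 1 library, so there is no replicate spread against which to set any difference below.

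A miRNA is cut from a hairpin precursor, first in the nucleus by Drosha and then in the cytoplasm by Dicer, which leaves a short duplex of a 5p and a 3p strand. One strand, the guide, is usually kept by an Argonaute protein and pairs through its seed with messenger RNAs, while the other is mostly lost. Neighbouring hairpins within 1 intron are thought to start from the same primary transcript. miR-191-5p is abundant in many epithelial tissues, has been reported at raised levels in several carcinomas, and is widely used as a reference miRNA in PCR assays, as miR-425-5p is too. DALRD3 encodes a protein that takes part in methylation of arginine transfer RNAs.

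In GRCh38 the MIR191 hairpin lies on chromosome 3 from 49020618 to 49020709 and the MIR425 hairpin from 49020148 to 49020234, both on the minus strand, with 383 bases between them. Transcription of DALRD3 (49015488 to 49022293) runs on the same strand, so MIR191 comes first. Both hairpins fall in the intron after exon 1 in each of the 4 DALRD3 transcripts of GENCODE 29 that span them. That intron runs from 49018319 to 49020845 in the transcript ENST00000313778.9. NDUFAF3, which encodes an assembly factor of mitochondrial complex I, runs on the opposite strand from 49020459, and MIR191 lies in an intron of 1 of its transcripts. No hairpin position comes from the authors' file.

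The RefSeq mature sequences (GRCh38.p14) of 3 of the 4 products follow, since the seed decides which messenger RNAs a product can pair with. Capitals mark the seed, bases 2 to 8, and the sequences read 5′ to 3′. The product miR-425-5p is named only.
miR-191-5p: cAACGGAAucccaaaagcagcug
miR-191-3p: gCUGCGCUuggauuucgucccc
miR-425-3p: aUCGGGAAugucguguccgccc
The 3 seeds differ from each other, and none of the other mature names among 2370 in the RefSeq table has any of them. These 3 products therefore form no seed family among themselves or with another RefSeq entry. The hairpin of MIR191 is shown to place its arms, with both mature products in capitals.
MIR191: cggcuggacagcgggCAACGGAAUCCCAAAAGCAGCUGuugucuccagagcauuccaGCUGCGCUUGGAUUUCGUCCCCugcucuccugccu
The GC content was 52.2% for miR-191-5p and 63.6% for each of miR-191-3p and miR-425-3p. The median was 47.8% over the 158 of 179 abundant miRNAs (defined below) that have a RefSeq sequence. Across these 158 miRNAs GC content and the log2 ratio between the libraries had a Spearman rho of -0.03, given as a description over miRNAs that share the same 2 libraries.

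The values are normalized reads, that is, reads of a miRNA multiplied by 1 factor per library set by the authors. One read was worth 0.119 in UM-SCC6-M and 0.133 in the parental library, which gave the reads behind each value. The file does not state this worth: it is the step between listed values, and the intervals rest on it. The reads behind all listed values summed to 7699264 in UM-SCC6-M and 8182713 in the parental library. A log2 ratio above 0 means a higher level in UM-SCC6-M, and brackets are 95% intervals that cover counting error only. They are exact for levels, shares and ratios, and normal for differences in balance. Reads copied by PCR are not independent molecules, so the intervals may be too narrow. The label of an epithelial carcinoma line was checked with 7 epithelial or squamous marker miRNAs. Of these, 5 had an entry, with summed levels of 19623 normalized reads in UM-SCC6-M and 16344 in the parental library. Most of that sum was miR-200b-3p (17481 and 12823), while miR-200a-3p went the other way (1344 and 2674). The defining markers miR-200c-3p (1.79 and 2.66) and miR-203a-3p (2.75 and listed at 0) were near 0, and miR-141-3p and miR-205-5p were not analysed here. The 6 fibroblast markers summed to 113.1 and 62.9 (miR-127-3p, miR-145-5p and miR-214-3p listed at 0 in both). Most of that sum was miR-199b-5p (87.2 and 42.0), while miR-143-3p went the other way (4.06 and 10.4). The blood markers with an entry summed to 17.9 and 24.6, all from miR-486-5p (miR-142-3p, miR-142-5p and miR-451a listed at 0 in both). The endothelial marker miR-126-3p stood at 519.9 and 968.3. The part of other cells in the values of the cluster was not tested.

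The major products of the neighbouring hairpins went opposite ways in the invasive culture. miR-191-5p stood at 5639 normalized reads in UM-SCC6-M and 3386 in the parental library, from 47226 and 25481 reads. It was 1.67-fold higher in UM-SCC6-M (interval 1.64 to 1.69), a log2 ratio of 0.74 (0.71 to 0.76). miR-425-5p stood at 721.9 normalized reads in UM-SCC6-M and 1101 in the parental library, from 6046 and 8289 reads. It was 1.53-fold lower in UM-SCC6-M (1.48 to 1.58), a log2 ratio of -0.61 (-0.66 to -0.56). The counting intervals of the 2 products lay on opposite sides of 0. Such intervals are narrow at this depth. That of miR-484, at a log2 ratio of only -0.13, also left out 0 (-0.21 to -0.04). That of miR-93-5p, at -0.01, did not (-0.04 to 0.02). The share of abundant miRNAs with an interval clear of 0 was not counted, so nothing is read from the separation.

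The minor arms were read far less often, and both had the higher value in UM-SCC6-M. miR-425-3p stood at 63.4 normalized reads in UM-SCC6-M and 49.8 in the parental library, from 531 and 375 reads. Its log2 ratio was 0.35 (0.15 to 0.54), a level 1.27-fold higher, which turned to -0.39 when the libraries were scaled to miR-191-5p. miR-191-3p stood at 6.57 normalized reads in UM-SCC6-M and 4.25 in the parental library, from only 55 and 32 reads. Its log2 ratio of 0.62 had an interval of -0.03 to 1.30, so a difference was not detectable at this depth. Of the 4 products, miR-425-5p alone had its lower value in the invasive culture.

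**Figure D1:**
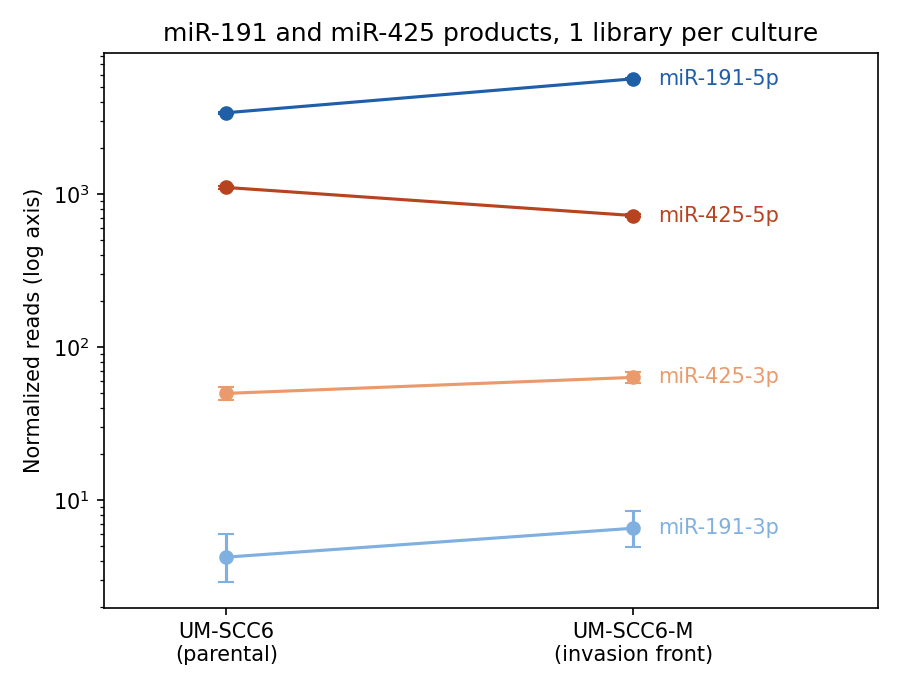
Normalized reads (log axis) of the 4 products in the parental UM-SCC6 and the UM-SCC6-M library, with bars for exact 95% Poisson counting intervals. Lines join the same product: miR-191-5p goes from 3386 to 5639, miR-425-3p and miR-191-3p also have their higher point in UM-SCC6-M, and miR-425-5p goes from 1101 to 721.9.

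In the authors' deposited table the log2 fold changes were 0.73586 for miR-191-5p, -0.60951 for miR-425-5p, 0.34752 for miR-425-3p and 0.62706 for miR-191-3p. The q-values in the authors' deposited table were 3.18e-220, 6.24e-07, 0.15599 and 0.96835 in the same order, and they compare 2 libraries, not 2 conditions. None of the 4 carried the mark for selected miRNAs in the authors' deposited table.

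The levels were then placed among all miRNAs whose higher library had 50 or more normalized reads, called abundant here. Of the 4 products, 3 reached this floor. miR-425-3p did so through its UM-SCC6-M value alone, and miR-191-3p did not reach it. Among the 179 abundant miRNAs 20.1% were at least 2-fold apart in either direction, and none of the 3 products was. The share was 7.26% for higher and 12.8% for lower values in UM-SCC6-M. At a smaller size of 1.5-fold, 17.9% of the abundant miRNAs were higher in UM-SCC6-M, miR-191-5p among them, and 25.7% were lower, miR-425-5p among them. miR-425-5p no longer reached 1.5-fold with total reads (-0.37) or without the 10 most abundant miRNAs (-0.54). Because the names were chosen with these values known, nothing is read from these counts.

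miR-191-5p held rank 25 by abundance among the 1178 named entries in UM-SCC6-M and rank 32 in the parental library. Its share of the summed listed reads was 0.613% in UM-SCC6-M (0.608 to 0.619) and 0.311% in the parental library (0.308 to 0.315). Some names there had nearly equal reads and may hold the same ones, such as miR-374b-5p and miR-374c-3p (12905 and 12894 in UM-SCC6-M). Such names are also counted separately among the abundant miRNAs. Next to it in the UM-SCC6-M order stood miR-10b-5p with 5782 and let-7b-5p with 4601 normalized reads. miR-425-5p held rank 72 in UM-SCC6-M and rank 63 in the parental library, with shares of 0.0785% (0.0766 to 0.0805) and 0.101% (0.0991 to 0.104). miR-425-3p held ranks 156 and 169, and miR-191-3p ranks 293 and 341. The order of the 4 products by level was the same in both libraries, with miR-191-5p first, then miR-425-5p, miR-425-3p and miR-191-3p, and the counting intervals of neighbours in that order did not overlap in either library.

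Of the abundant miRNAs, 25 had a higher log2 ratio than miR-191-5p and 153 a lower one. For miR-425-5p 134 had a higher ratio and 44 a lower one, and for miR-425-3p these were 54 and 124. The median of all 179 was 0.04, so miR-191-5p lay 0.70 above it and miR-425-5p 0.65 below it, distances that do not depend on the scaling. Scaling to total reads moves all log2 ratios up by 0.24. The nearest ratios to that of miR-191-5p over the 2 libraries belonged to miR-23a-3p (0.74), miR-197-3p (0.75) and miR-361-5p (0.76). For miR-425-5p they belonged to miR-941 (-0.61), miR-340-3p (-0.62) and miR-130a-3p (-0.63), and for miR-425-3p to miR-23b-3p (0.34), miR-196a-5p (0.36) and miR-423-3p (0.36). Likeness over 2 libraries is a match of 1 ratio.

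**Figure D2:**
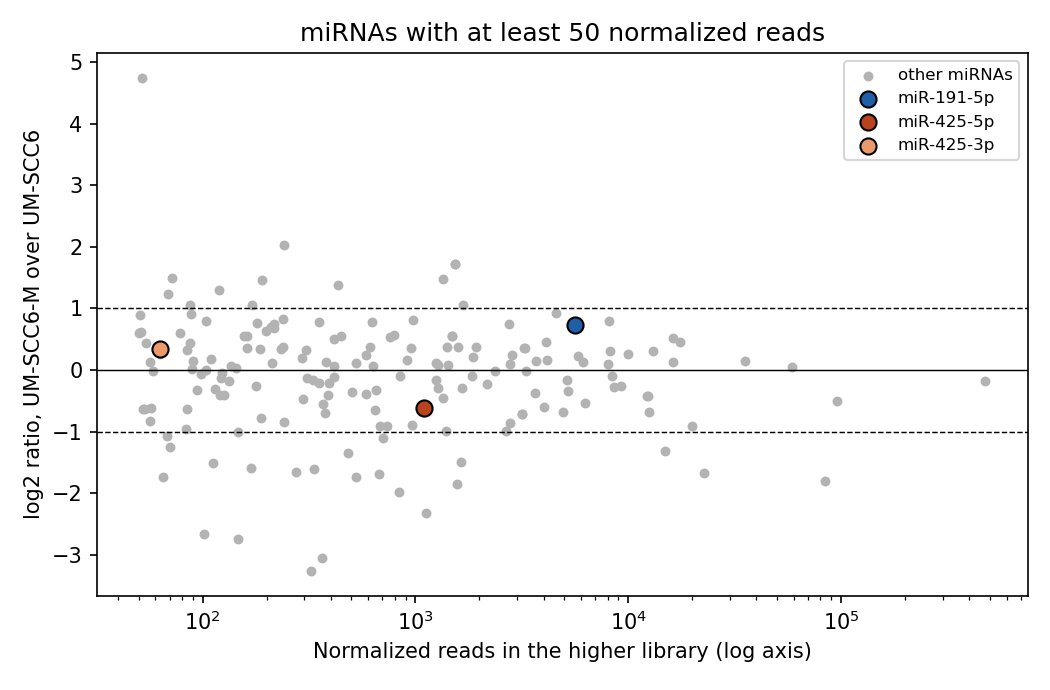
The log2 ratio of UM-SCC6-M over parental UM-SCC6 against the level in the higher library (log axis) for the 179 abundant miRNAs (50 or more normalized reads). Dashed lines mark 2-fold in each direction: miR-191-5p (0.74), miR-425-5p (-0.61) and miR-425-3p (0.35) all lie between them, the first and last above 0 and the second below.

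The make-up of the locus differed between the libraries. miR-191-5p gave 87.7% of the reads of the 4 products in UM-SCC6-M (87.4 to 88.0) and 74.6% in the parental library (74.1 to 75.0). miR-425-5p gave 11.2% in UM-SCC6-M (11.0 to 11.5) and 24.3% in the parental library (23.8 to 24.7). There were 7.81 reads of miR-191-5p for each read of miR-425-5p in UM-SCC6-M and 3.07 in the parental library. The log2 balance of these 2 products was thus 1.35 higher in UM-SCC6-M (normal 95% interval 1.29 to 1.40, counting error only). This balance is taken within each library, so no scaling between the libraries enters it.

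Summed over the 4 products, the locus stood at 6431 normalized reads in UM-SCC6-M and 4542 in the parental library, a log2 ratio of 0.50 (0.48 to 0.52). The sum follows miR-191-5p, the product with most of the reads. The miR-425 hairpin taken alone, both arms together, had a log2 ratio of -0.55 (-0.60 to -0.51), since its 5p arm outweighs its 3p arm.

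Arms of 1 hairpin were compared next, since both strands come from the same duplex. The 5p arm of miR-191 gave 99.88% of its reads in UM-SCC6-M and 99.87% in the parental library, so the 3p arm was a trace in both (0.116%, interval 0.0876 to 0.151, and 0.125%, 0.0858 to 0.177). The difference between the libraries in the log2 balance of 5p to 3p was 0.12 (-0.51 to 0.75), which is within counting error. The arms of miR-425 were less one-sided and their balance differed. miR-425-3p gave 8.07% of the reads of its hairpin in UM-SCC6-M (7.43 to 8.76) and 4.33% in the parental library (3.91 to 4.78). There were 11.4 reads of the 5p arm for each 3p read in UM-SCC6-M and 22.1 in the parental library. The log2 balance was lower in UM-SCC6-M by 0.96 (difference -0.96, interval -1.15 to -0.76).

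Among 30 hairpins with both arms at 50 or more normalized reads in the higher library, 5 had a larger difference toward the 3p arm than miR-425. These were miR-30a (-1.97), miR-30e (-1.92), miR-455 (-1.66), miR-181a (-1.47) and miR-532 (-0.99). In either direction 10 of the 30 had a larger difference, and the median size was 0.76. The 30 include miR-3184, the antisense entry of miR-423 with nearly its reads, so that locus is counted under both names. miR-191 lacks a 3p arm at this floor. miR-425 passed it only through the UM-SCC6-M value of its 3p arm (63.4, and 49.8 in the parental library). Its entry thus rested on the library in which that arm was higher, so its rank is a description only. With the floor lowered to 5 normalized reads, a setting chosen after its values were seen, 83 hairpins could be compared. The 3p arm of miR-191 passed this lower floor only through UM-SCC6-M too (6.57, and 4.25 in the parental library). In that set 73 hairpins had a larger difference than miR-191 and 24 a larger one than miR-425, and the median size was 0.63. In each library 2 of the 83 had a stronger lean to the 5p arm than miR-191.

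**Figure D3:**
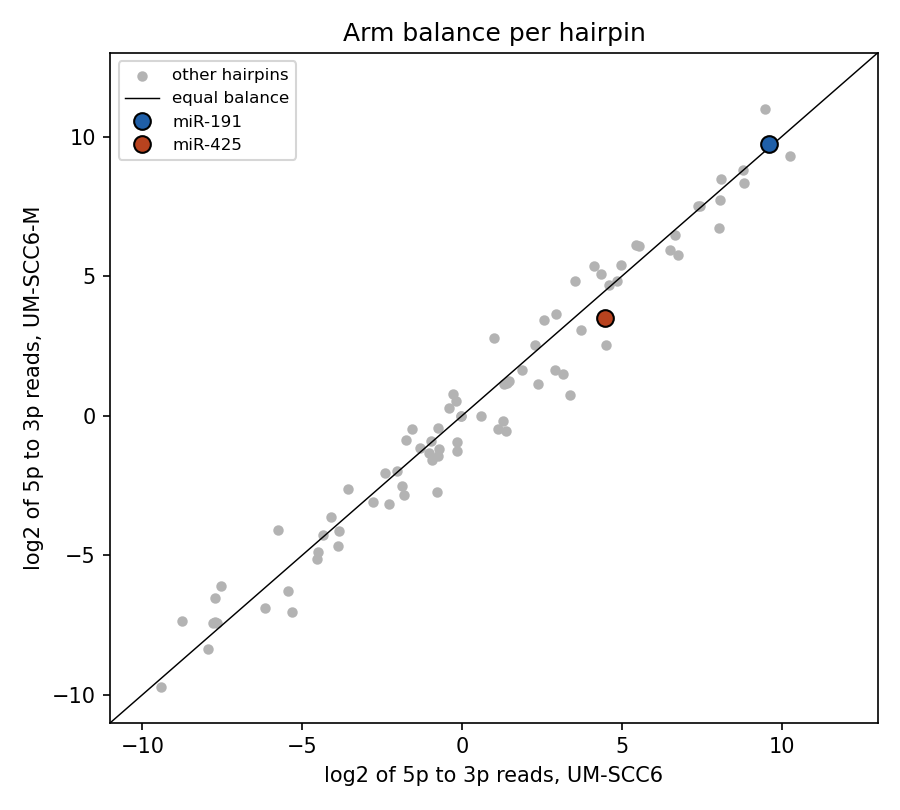
The log2 of 5p to 3p reads per hairpin in UM-SCC6-M against the same in parental UM-SCC6, for 83 hairpins with both arms at 5 or more normalized reads in the higher library. miR-191 lies close to the line of equal balance at the upper end (9.73 and 9.61), and miR-425 lies below the line (3.51 in UM-SCC6-M and 4.46 in the parental library).

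The 3p arms of the neighbouring hairpins were also set against each other. There were 0.104 reads of miR-191-3p for each read of miR-425-3p in UM-SCC6-M and 0.0866 in the parental library, a log2 difference of 0.27 (-0.39 to 0.93), within counting error. Between miR-191-5p and miR-425-3p the log2 difference was 0.39 (0.20 to 0.58), smaller than the 1.35 between the 5p arms.

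Other neighbouring hairpins show how far products of 1 locus lay apart in these libraries. Pairs were formed from abundant miRNAs with 1 annotated hairpin each, on the same strand with at most 10 kb between the hairpins, a set chosen after the values were seen. In the 43 pairs the median difference in log2 ratio was 0.35. miR-191-5p with miR-425-5p was at 1.35, and 6 pairs were farther apart. The widest was miR-182-5p with miR-96-5p at 2.42. Log2 ratios of opposite sign were found in 22 of the 43 pairs under the authors' scaling. Some of the 22 had 2 small ratios, such as miR-182-5p with miR-183-5p (0.09 and -0.01). The count depended on the scaling: 16 with total reads, 20 without the 10 most abundant miRNAs and 14 with the median of 9 other reference miRNAs. It was 4 scaled to miR-191-5p and 8 scaled to miR-425-5p. In 3 pairs 1 product was at least 1.5-fold higher and the other at least 1.5-fold lower: miR-191-5p with miR-425-5p, and miR-23a-3p with each of miR-27a-3p and miR-24-2-5p. With total reads, or without the 10 most abundant miRNAs, the miR-191 and miR-425 pair was not among such pairs, as miR-425-5p was then at -0.37 or -0.54. Of the hairpins, 2 enter through a minor arm, miR-24-2-5p and miR-16-2-3p, because their major arm also comes from another locus. Without them 40 pairs remained, with a median of 0.32 and 5 pairs farther apart than miR-191-5p with miR-425-5p. The pairs share hairpins, so they are not independent.

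**Figure D4:**
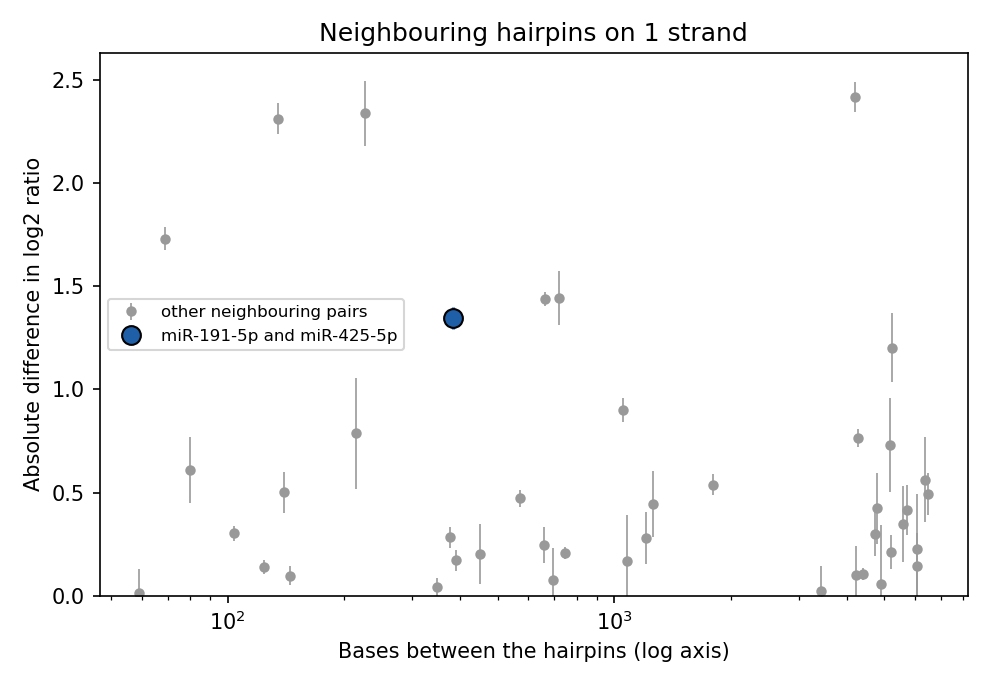
Absolute difference in log2 ratio between products of 43 pairs of neighbouring hairpins against the bases between the hairpins (log axis), with bars of 95% counting intervals. The pair miR-191-5p and miR-425-5p, at 383 bases, stands at 1.35, with 6 pairs above it.

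A further 6 clusters were picked by hand, with the products to compare set for each. Among these 6, the span between lowest and highest product was wider than 1.35 only for miR-30e-5p and miR-30c-5p of NFYC, at 2.17. This rests on the choice of clusters, which left out miR-23a-3p with miR-27a-3p (1.73) and miR-183-5p with miR-96-5p (2.31). miR-24-3p and miR-23b-3p of AOPEP spanned 1.05, the MCM7 cluster of miR-106b-5p, miR-93-5p and miR-25-3p 0.68, and miR-99b, let-7e and miR-125a 0.47. miR-106b-5p is the minor arm of its hairpin, and with miR-106b-3p in its place, chosen after seeing the data, the MCM7 span was 0.14. The pair miR-221-3p and miR-222-3p spanned 0.21, and miR-15b-5p and miR-16-5p of SMC4 0.02. miR-30c-5p, miR-24-3p and miR-16-5p also come from a second locus each, so their values mix loci, whereas each product of the miR-191 and miR-425 cluster has 1 hairpin.

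Because both 5p products serve as references in PCR assays, they were set beside 9 other miRNAs used in that way. All 11 lay within 2-fold between the libraries, while 20.1% of the 179 abundant miRNAs did not. Their median log2 ratio was 0.13 beside 0.04 for all abundant miRNAs. miR-191-5p had the highest ratio of the 11 and miR-425-5p the lowest but one, with miR-24-3p below it at -0.71. The closest to 0 was miR-93-5p at -0.01, with 2331 and 2354 normalized reads, followed by miR-25-3p and miR-484 at 0.13 and -0.13. Of the 9 others 8 were within 1.5-fold, while miR-191-5p and miR-425-5p were both outside it, on opposite sides, under the authors' scaling. Of the 179 abundant miRNAs 43.6% were outside 1.5-fold. Both 5p products were chosen with their values known, so nothing is read from these counts. With total reads miR-425-5p (-0.37) and miR-24-3p (-0.47) came inside 1.5-fold, and miR-423-5p (0.79), let-7a-5p (0.76) and miR-16-5p (0.60) went outside. Without the 10 most abundant miRNAs miR-425-5p (-0.54) came inside, and miR-423-5p (0.62) and let-7a-5p (0.59) went outside. miR-191-5p was outside under both.

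**Figure D5:**
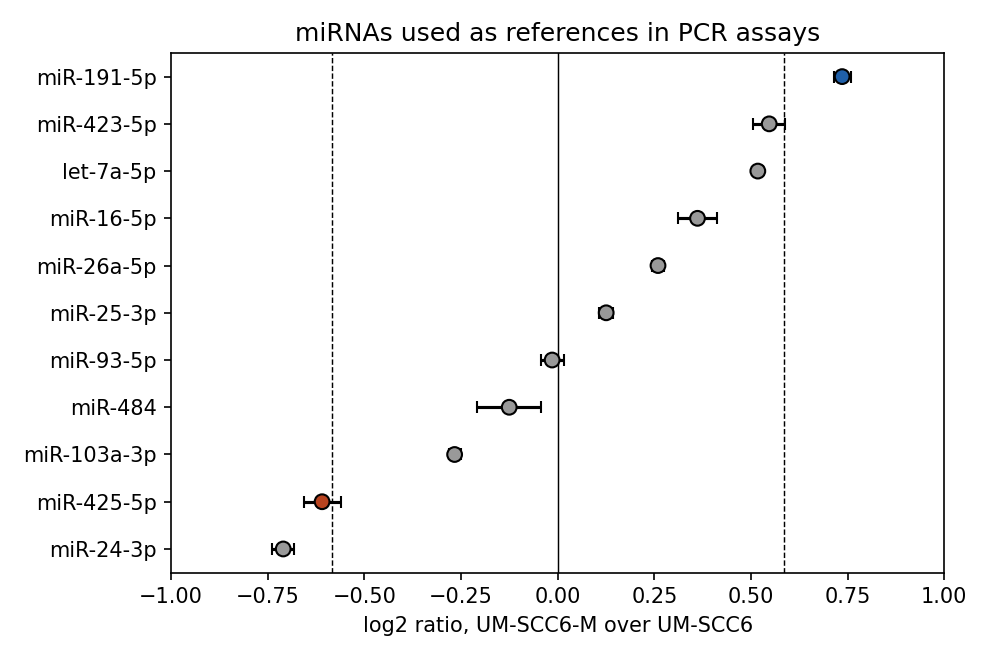
The log2 ratio of UM-SCC6-M over parental UM-SCC6 for 11 miRNAs used as references in PCR assays, with exact 95% counting intervals and dashed lines at 1.5-fold in each direction. miR-191-5p (0.74) is at the upper end, and miR-425-5p (-0.61) is next to the lowest, miR-24-3p (-0.71).

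Other miRNA genes of the same stretch of chromosome 3 were also looked up. Within 10 Mb of MIR191 the table held 13 further names from 9 hairpins, and 7 of these names (53.8%) were listed at 0 in both libraries, beside 53.7% of all 1178 named entries. A listed 0 can hide a few reads. Nearly all reads there came from let-7g-5p, a member of the let-7 family, and from miR-191-5p and miR-425-5p of the cluster. let-7g-5p stood at 35315 normalized reads in UM-SCC6-M and 31835 in the parental library, a log2 ratio of 0.15 (0.14 to 0.16). miR-138-5p, which also comes from a second locus, stood at 14.4 and 40.4 with a log2 ratio of -1.48 (-1.80 to -1.17). The remaining 4 names with known reads had at most 31 reads in either library, so the cluster has no abundant neighbour on its strand closer than let-7g.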

How the data were processed

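Total RNA (3 µg per culture) was turned into small RNA libraries by adaptor ligation, and fragments of 140 to 160 bp were cut from a gel, per the labels' protocols. Bowtie is named in the submitters' processing notes, without a version. Build, miRNA database, counting and scaling method: not given in the sources used here. In 1 table, the authors deposited a signal per library (normalized reads), a log2 fold change, and p-values and q-values of their own, per the file headers. The deposited log2 fold change equalled the log2 ratio of the columns within 4.98e-05, and the deposited p-values and q-values were copied only.

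Reads were recovered because all listed signal values were whole multiples of 1 step per library, within 7.16e-05 reads. The step was taken as 1 read, which no source states. No listed value was of fewer than 9 reads (UM-SCC6-M) or 8 reads (parental). Where 1 library was listed at 0, its reads came from the deposited fold change. Reads in both libraries were known for 543 named miRNAs. Log2 ratios had 0.5 reads added. Ratio intervals are Clopper-Pearson intervals of 1 library's share of the reads, and intervals of balances are normal intervals from counts. With 1 library per culture no test was made. Simulated data with counting error only, 543 miRNAs and 200 of them changed 4-fold, gave 70 of 70 changed abundant miRNAs past 2-fold and 0 of 114 unchanged ones. This checked the computation only. The planted changes were larger than the differences of the 4 products and held no spread between cultures, so it lends those differences no support.

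The members and lists were chosen with earlier results of these data known. Named were the 4 members, the 3 abundant miRNAs nearest in ratio to each, their neighbours in rank, and members of the lists for clusters, references, markers and chromosome 3. The hairpins larger in arm difference than miR-425 and the widest pairs were named after their values were seen. Positions came from GENCODE 29 and sequences from RefSeq, matched by name for 1037 of 1178 miRNAs. Alternatives were other scalings, floors, a 1.5-fold threshold, 5 added reads and the deposited fold changes. Computation used Python 3.11.15, numpy 2.4.6, pandas 2.3.3, scipy 1.17.1 and matplotlib 3.10.9.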

Additional observations from a re-analysis of the deposited data

How the results depend on the processing

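The log2 ratios of the 4 products kept their sign with total reads, the median of ratios, total reads without the 10 most abundant miRNAs, and the median of 9 other reference miRNAs, the last chosen after seeing the data. In that order miR-191-5p was at 0.98, 0.69, 0.81 and 0.61, and the sum of the 4 products at 0.74, 0.46, 0.57 and 0.38. miR-425-5p was at -0.37 with total reads, -0.54 without the 10 most abundant and -0.73 with the reference miRNAs, and miR-425-3p at 0.59 with total reads. Scaled to miR-191-5p, also chosen after seeing the data, miR-425-5p was at -1.35, and miR-425-3p and miR-191-3p turned to -0.39 and -0.12. Scaled to miR-425-5p, miR-191-5p was at 1.35 and miR-425-3p at 0.96. These last shifts follow from the construction, as 1 product is set to 0.

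The 13 higher and 23 lower miRNAs at 2-fold or more became 22 higher with total reads, 21 and 45 at a floor of 10 normalized reads, 6 and 15 at a floor of 200, 59 and 107 with no floor, and 32 and 46 at 1.5-fold. Scaled to miR-191-5p they were 2 and 68, and scaled to miR-425-5p 45 and 14. With total reads the lower ones numbered 20. Arm and hairpin balances stayed within their counting intervals with 5 reads added. No paired analysis was possible because each culture gave 1 library. Depth limits miR-191-3p, with 55 and 32 reads, and every comparison that uses it.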

Other observations

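Using a product of this locus as the reference, as PCR assays often do, gave different counts for these 2 libraries depending on the product. The setting was chosen after seeing the data. The outcome follows from the construction, since scaling to a product moves all log2 ratios by the ratio of that product. Scaled to miR-191-5p, 2 of the 179 abundant miRNAs were at least 2-fold higher in UM-SCC6-M and 68 at least 2-fold lower. Scaled to miR-425-5p, 45 were higher and 14 lower, beside 13 and 23 under the authors' scaling. miR-218-5p, which the series title names, had a log2 ratio of -2.66 under the authors' scaling, -3.40 against miR-191-5p and -2.05 against miR-425-5p. Its direction was the same in all 3 of these scalings, which was fixed in advance because the shifts are smaller than its ratio.

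The first base of the mature strand, which is joined to an adaptor during library making, is C in miR-191-5p, G in miR-191-3p and A in miR-425-3p. Among abundant miRNAs with a RefSeq sequence the median log2 ratio was 0.13 for the 32 that start with C, 0.00 for the 35 that start with A, 0.00 for the 4 that start with G and -0.09 for the 87 that start with U. The part of the first base in the values of the cluster was not tested.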
